A study of Homo sapiens with 90 samples.

Results

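The genes described here are 45 genes of the S and G2/M phases of the cell cycle, 20 that serve DNA replication and 25 that serve mitosis, out of 19774 genes that a probe set on the array named alone. The rule names its members by symbol and uses no measured change, although it was drawn up with earlier results of these data known. Each member was read from 1 probe set, the one with the highest mean over all 90 columns. The 20 replication genes were MCM2 to MCM7, PCNA, RRM1, RRM2, TYMS, CDC6, CDT1, GINS2, UHRF1, SLBP, CCNE1, CCNE2, E2F1, CDC45 and FEN1. The 25 mitosis genes were CCNA2, CCNB1, CCNB2, CDK1, PLK1, AURKA, AURKB, BUB1, BUB1B, TTK, CENPE, CENPF, KIF11, KIF20A, KIF23, TOP2A, MKI67, TPX2, CDC20, UBE2C, BIRC5, NUSAP1, HMMR, DLGAP5 and CKS2. The cells were A673, a Ewing sarcoma line that carries the EWSR1-FLI1 fusion, plated at 26000 cells per well and exposed for 24 h to 0.2% DMSO alone or to 1 of 3 chemicals in 0.2% DMSO. The chemicals were the triazole fungicide fenbuconazole, the imidazole fungicide imazalil and the phenoxy herbicide 2,4-D, each tested at 0.001 to 10 µM in 9 steps, with 3 arrays at every step. The values were log2 intensities summarised by robust multi-array averaging (RMA), and each chemical's 30 columns (27 treated, 3 DMSO) had been normalized as 1 set, so levels are compared only within a set. The labels call the DMSO columns of every set common controls. Over all probe sets, each centred within its set, the same-numbered DMSO columns of imazalil and 2,4-D correlated at 0.867 to 0.878, and those of imazalil and fenbuconazole at 0.105 to 0.185. Comparisons with DMSO in the imazalil and 2,4-D sets were therefore treated as sharing their 3 control arrays, and whether the fenbuconazole columns come from the same arrays was not settled. Each array was numbered 1 to 3 within its group. The study's methods describe 3 independent batches of cells, but the labels do not tie a number to a batch, so "replicate number" is used here for the label alone, and p-values measure the spread between arrays.

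In a dividing cell, E2F transcription factors switch on the replication genes late in G1: cyclin E (CCNE1, CCNE2) drives entry into S phase, CDC6 and CDT1 load the MCM2 to MCM7 helicase, CDC45 and GINS2 activate it, PCNA clamps the polymerase, and RRM1, RRM2 and TYMS supply nucleotides. The mitosis genes follow in G2: cyclins A and B with CDK1 drive entry, PLK1 and the Aurora kinases build the spindle, BUB1, BUB1B and TTK run its checkpoint, kinesins move it, and CDC20 and UBE2C serve the anaphase-promoting complex. The mitosis promoters are known for the cell cycle genes homology region (CHR), which MuvB complexes bind, and for CCAAT boxes, which NF-Y binds. In a culture of mixed phases, the summed level of each class is widely read as a measure of how many cells are in that phase. In such bulk samples, fewer cells in a phase and less RNA per cell cannot be told apart.

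The 2 classes differed in sequence before the transcription start, which the choice of members did not use. RefSeq (GRCh38.p14) gave a promoter for 37 of the 45 members, 17 replication and 20 mitosis genes. The 250 bases before the start were searched on both strands for an E2F site (TTTCCCGC, TTTCGCGC, TTTGCCGC or TTTGGCGC), a CHR (TTTGAA or TTCGAA) and a CCAAT box (CCAAT). Some genes, such as MCM7 and CDK1, had several listed promoters. A gene was counted if any of them matched, so such genes had more chances to match. An E2F site was present in 9 of 17 replication genes (52.9%) and in 2 of 20 mitosis genes (10%), against 3.4% of 27305 genes. A CHR was present in 12 of 20 mitosis genes (60%) and in 2 of 17 replication genes (11.8%), against 17.2% of all genes. A CCAAT box was present in 18 of 20 mitosis genes (90%) and 11 of 17 replication genes (64.7%), against 37% of all genes. CHR and CCAAT stood together in 11 of 20 mitosis genes (55%), 2 of 17 replication genes (11.8%) and 6.24% of all genes. A match is a description of the letters and was not tested as a site. The 4 promoters below belong to 2 replication genes, MCM6 (chr2:135876444-135876693, minus strand) and MCM3 (chr6:52284743-52284992, minus strand), and 2 mitosis genes, CENPF (chr1:214602945-214603194, plus strand) and MKI67 (chr10:128126424-128126673, minus strand), which differed between replicate numbers as described further on. Each is printed 5′ to 3′ on its gene's strand and ends at the base before the start, with every match in capitals.
MCM6: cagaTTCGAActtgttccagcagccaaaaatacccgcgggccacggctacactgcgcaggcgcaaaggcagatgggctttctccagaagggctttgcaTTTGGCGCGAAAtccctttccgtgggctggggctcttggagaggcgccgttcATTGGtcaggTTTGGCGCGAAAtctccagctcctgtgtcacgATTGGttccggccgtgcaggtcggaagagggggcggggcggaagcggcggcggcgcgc
MCM3: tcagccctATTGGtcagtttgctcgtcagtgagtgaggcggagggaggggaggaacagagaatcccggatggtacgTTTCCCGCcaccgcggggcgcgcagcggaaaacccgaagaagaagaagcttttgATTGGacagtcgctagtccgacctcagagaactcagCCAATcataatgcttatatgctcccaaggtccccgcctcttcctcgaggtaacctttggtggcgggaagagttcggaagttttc
CENPF: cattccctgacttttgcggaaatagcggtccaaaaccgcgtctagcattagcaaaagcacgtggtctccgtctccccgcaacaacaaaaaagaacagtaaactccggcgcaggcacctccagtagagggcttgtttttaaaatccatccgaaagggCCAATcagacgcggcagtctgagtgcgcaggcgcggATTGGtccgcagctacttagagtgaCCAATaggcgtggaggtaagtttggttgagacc
MKI67: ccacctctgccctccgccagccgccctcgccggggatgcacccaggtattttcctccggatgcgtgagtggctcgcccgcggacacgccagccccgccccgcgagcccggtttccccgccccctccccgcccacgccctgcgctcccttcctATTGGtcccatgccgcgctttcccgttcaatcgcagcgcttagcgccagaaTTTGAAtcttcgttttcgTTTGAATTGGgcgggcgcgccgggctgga
In MCM6 the TTTGGCGC at 152 and at 90 bases before the start each overlap a second match on the other strand, a TTCGAA lies at 246 bases, and an ATTGG, the reverse complement of CCAAT, lies at 100 and at 58 bases. MCM3 held 1 TTTCCCGC at 174 bases before the start and 3 CCAAT boxes. CENPF held 3 CCAAT boxes and neither of the other motifs. MKI67 held a TTTGAA at 47 and at 29 bases before the start, of which the nearer overlaps a CCAAT box on the other strand.

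The markers of the labelled line and of other cell types were read next, each probe set on its own scale. CD99, STEAP1, PRKCB, NKX2-2 and LIPI, 5 of 8 measured genes typical of Ewing sarcoma, had set means of 7.69 to 12.5 log2. GLI1 and IGF1 lay between 3.87 and 6.94, and FATE1 between 2.42 and 3.11. All measured markers of hepatocytes, blood and endothelium had set means of at most 3.61 log2. KRT18, THY1, COL1A1 and COL3A1, listed as epithelial or fibroblast markers, had set means of 7.10 to 10.85 log2, and levels of different probe sets do not rank the cell types.

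At 10 µM, the highest concentration, no member passed the test against DMSO in any of the 3 sets, and the median change of each class was within 0.04 log2 of 0. In the fenbuconazole set 0 of 45 members passed limma's test at an adjusted p of 0.05, and 0 had an unadjusted p below 0.05. The same test called 0% of the 54613 probe sets, and 7% of them had an unadjusted p below 0.05. In the imazalil set 0 of 45 members passed and 0 had an unadjusted p below 0.05, against 0% and 4.75% of all probe sets. In the 2,4-D set the counts were again 0 and 0 of 45, against 0% and 3.85%. The smallest adjusted p of any member was 0.782, for MKI67 in the fenbuconazole set, and it was 1 for every member in the other two sets. The median change of the 20 replication genes was 0.0001 log2 for fenbuconazole, 0.0007 for imazalil and 0.0126 for 2,4-D. The median change of the 25 mitosis genes was −0.0063, −0.0366 and −0.0187 in the same order, beside medians over all probe sets of −0.0002, 0.0036 and −0.0072. Lower than DMSO at 10 µM were 14, 18 and 16 of the 25 mitosis genes and 10, 10 and 8 of the 20 replication genes. These counts were not tested, and those of imazalil and 2,4-D use the same 3 DMSO arrays, so they are not separate observations.

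**Figure D1:**
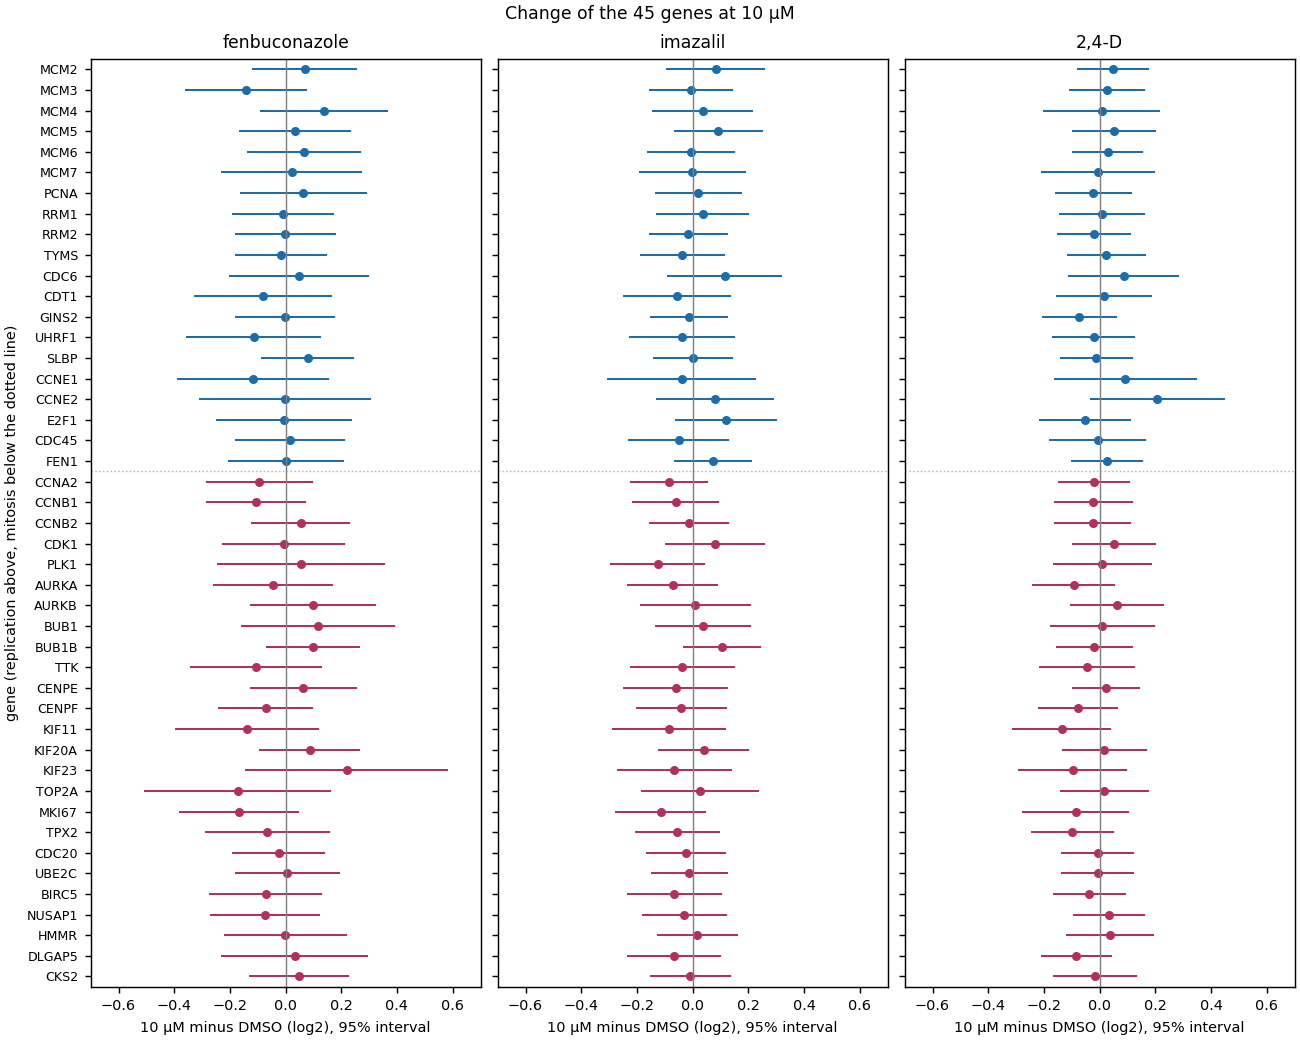
Difference between 10 µM and DMSO (x axis, log2) for each of the 45 genes (y axis) in the 3 sets, 3 arrays per group. Points are limma estimates and lines their 95% intervals, replication genes in blue and mitosis genes in red; every interval includes 0, and the widest ones belong to KIF23 and TOP2A in the fenbuconazole set.

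The intervals bound the changes that these arrays leave room for in the 1 probe set read per gene. The 95% interval of the change at 10 µM lay within ±0.5 log2 (1.41-fold) for 43 of 45 members with fenbuconazole and for 45 of 45 with imazalil and with 2,4-D. It lay within ±0.25 log2 (1.19-fold) for 16, 35 and 39 members. The 2 members outside ±0.5 with fenbuconazole were KIF23, a kinesin of the central spindle, at 0.22 (interval −0.14 to 0.58), and TOP2A, the topoisomerase that untangles sister chromatids, at −0.17 (−0.50 to 0.16). Another TOP2A probe set of similar level (mean 9.70 against 9.80) had the opposite sign, 0.41 at 10 µM of fenbuconazole. It passed in none of the 27 comparisons with DMSO (smallest limma adjusted p = 0.318). KIF23 read 7.72, 6.79 and 7.59 on the 3 DMSO arrays and 7.82, 7.52 and 7.42 at 10 µM. Without replicate 2, whose DMSO array was the low one, the estimate was −0.03.

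Among the replication genes, MCM2, a subunit of the helicase, read 9.93, 9.93 and 9.79 in the DMSO arrays of the fenbuconazole set and 9.87, 10.07 and 9.91 at 10 µM. The difference was 0.07 ± 0.09 (SE, n = 3 per group, limma adjusted p = 0.92), and in the imazalil and 2,4-D sets it was 0.08 ± 0.08 and 0.05 ± 0.06. PCNA changed by 0.06 ± 0.11, 0.02 ± 0.07 and −0.02 ± 0.07 (SE) in the fenbuconazole, imazalil and 2,4-D sets, all within the spread of the arrays. RRM2, the regulated subunit of ribonucleotide reductase, read 11.66, 11.65 and 11.52 with DMSO and 11.62, 11.61 and 11.61 at 10 µM of fenbuconazole. The groups overlapped, and its change stayed between −0.02 and −0.0009 in the 3 sets. The other RRM2 probe set (mean 11.60 against 11.90) changed by −0.07, −0.04 and −0.09 with fenbuconazole, imazalil and 2,4-D, and did not pass. MCM5 gave 0.03, 0.09 and 0.05, CDC6 0.05, 0.12 and 0.09, and E2F1 −0.01, 0.12 and −0.05 in the order fenbuconazole, imazalil and 2,4-D. The other MCM5 probe set (mean 8.48 against 9.52) had the opposite sign in each set (−0.01, −0.05 and −0.06). The other CDC6 probe set (mean 7.78 against 8.07) gave −0.08, −0.0036 and 0.09. A dimmer E2F1 probe set (mean 4.50 against 5.49) gave 0.22, 0.11 and 0.0051, and none of these passed. The replication gene with the smallest limma p in each set was MCM3 with fenbuconazole (−0.14 ± 0.11, adjusted p = 0.835), E2F1 with imazalil (0.12 ± 0.09, adjusted p = 1) and CCNE2 with 2,4-D (0.21 ± 0.12, adjusted p = 1).

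Among the mitosis genes, MKI67, the proliferation antigen Ki-67, had the smallest p with fenbuconazole. It read 9.49, 9.31 and 9.39 with DMSO and 9.38, 9.09 and 9.21 at 10 µM, and the ranges overlapped. The change was −0.17 ± 0.10 (SE, n = 3 per group, limma adjusted p = 0.782), and it was −0.11 ± 0.08 with imazalil and −0.09 ± 0.09 with 2,4-D (adjusted p = 1 in both). The imazalil value rested on replicate 1, without which it was −0.03. CCNB1, the cyclin that drives mitotic entry, gave −0.11, −0.06 and −0.02, and CDK1, its kinase, gave −0.01, 0.08 and 0.05. AURKA changed by −0.05, −0.07 and −0.09, CCNA2 by −0.09, −0.09 and −0.02, CDC20 by −0.02, −0.02 and −0.01, BIRC5 by −0.07, −0.07 and −0.04, and CENPF by −0.07, −0.04 and −0.08, none of which passed. Other probe sets of these genes did not all keep the sign. An AURKA probe set of similar level (mean 9.89 against 10.00) gave 0.07, 0.04 and −0.06, and the other CCNA2 probe set gave −0.24, 0.0013 and 0.02. Further BIRC5 probe sets gave −0.12, 0.05 and 0.01, and 0.07, 0.06 and 0.01. A dimmer CENPF probe set (mean 7.03) gave −0.18, −0.08 and −0.02. PLK1 read 7.95, 7.76 and 7.90 on the DMSO arrays of the imazalil set and 7.89, 7.83 and 7.52 at 10 µM. Its change of −0.13 ± 0.08 rested on the third array, and without replicate 3 it was 0.0037.

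Over all 9 concentrations no gene of either class passed limma's tests. In the 27 comparisons with DMSO, 7 of 405 member values had an unadjusted p below 0.05 with fenbuconazole (1.73%, against 6.58% over all probe sets). The counts were 3 of 405 with imazalil (0.741% against 4.53%) and 10 of 405 with 2,4-D (2.47% against 4.3%). The F-test over the 9 concentrations called 0 of 45 members in each set, against 0% of all probe sets in each. At an unadjusted p below 0.05 it gave CCNE2 with fenbuconazole, none with imazalil and E2F1 with 2,4-D, against 4.73%, 3.38% and 3.77% of all probe sets. The slope on log10 concentration over the 27 treated arrays of a set likewise called 0 of 45 members in each set, against 0% of probe sets with fenbuconazole, 0.00183% with imazalil and 0% with 2,4-D. At an unadjusted p below 0.05 the slope gave only CCNE1 with fenbuconazole (−0.05 ± 0.03 log2 per 10-fold concentration, SE, n = 27, limma p = 0.047, adjusted p = 1), and no member in the other two sets. The backgrounds of the unadjusted slopes were 4.3%, 4.92% and 3.67%. With imazalil the members with the smallest p for the slope were UHRF1 (−0.02), CDT1 (−0.02) and MCM7 (−0.02) among the replication genes and KIF11 (−0.02), KIF23 (−0.02) and AURKB (−0.02) among the mitosis genes, with adjusted p of 0.986 to 0.993. With 2,4-D, PLK1 (0.03), AURKB (0.02) and MCM7 (0.02) had slopes above 0, and so did SLBP, CKS2 and TPX2 with fenbuconazole (0.02 each). Slopes were below 0 for 21, 31 and 19 of the 45 members with fenbuconazole, imazalil and 2,4-D. These counts were not tested, and the share over all probe sets is not given. A test of whether the slopes differed between the 3 chemicals called 0 of 45 members, and 0 at an unadjusted p below 0.05, against 0.00366% and 4.09% of all probe sets.

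**Figure D2:**
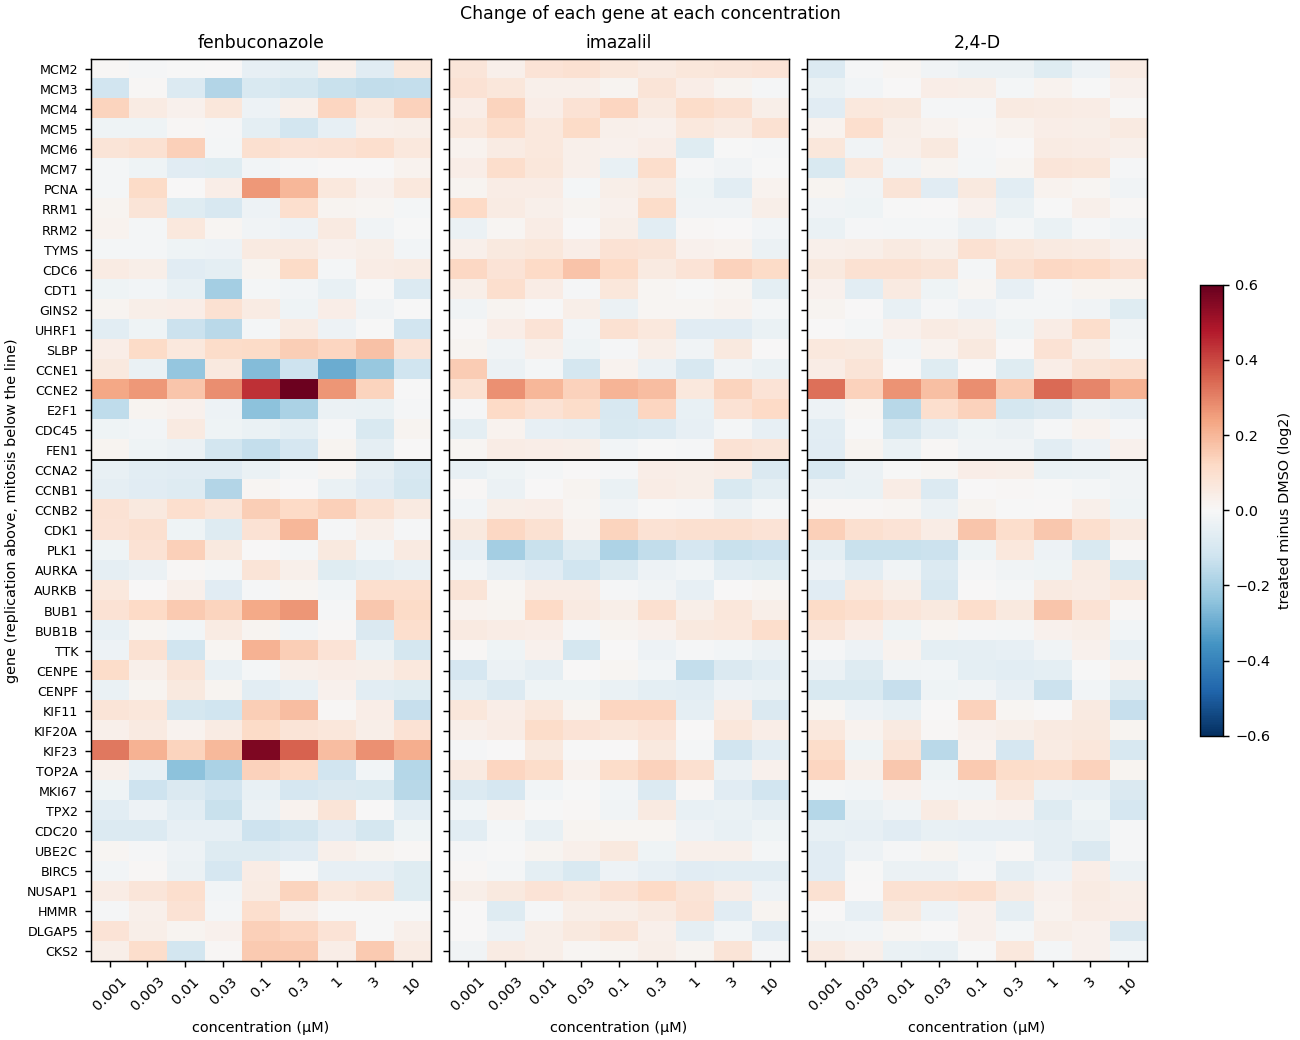
Change of each gene against the DMSO arrays of its set (colour, log2, from −0.6 in blue to 0.6 in red) at each concentration (x axis, µM), with replication genes above the line and mitosis genes below it. Most cells are pale, and the darkest red ones are CCNE2 at 0.3 µM (0.59) and KIF23 at 0.1 µM (0.56, and 0.28 without replicate 2) of fenbuconazole.

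The class means spanned narrow ranges across concentrations. The mean of the 20 replication genes ranged over the 10 groups from 9.14 to 9.19 log2 in the fenbuconazole set, from 9.89 to 9.96 in the imazalil set and from 9.96 to 10.01 in the 2,4-D set. The mean of the 25 mitosis genes ranged from 9.35 to 9.45, from 10.14 to 10.19 and from 10.22 to 10.27. The median SD among the 3 arrays of a group was 0.04, 0.02 and 0.02 for the replication mean and 0.05, 0.02 and 0.02 for the mitosis mean. The replication mean minus the mitosis mean, a measure of the balance between the classes on 1 array, ran from −0.29 to −0.21, from −0.28 to −0.21 and from −0.29 to −0.24 over the groups of the 3 sets. At 10 µM of imazalil the mitosis mean was 10.131 to 10.149 on the 3 arrays, below the 10.151 to 10.197 of the DMSO arrays, with no overlap. The nearest arrays of the 2 groups were close (10.1487 and 10.1506). The lowest arrays at 0.003, 1 and 3 µM of imazalil lay below DMSO as well (10.133, 10.134 and 10.127). At 10 µM of fenbuconazole (9.30 to 9.42 against 9.30 to 9.42) and of 2,4-D (10.19 to 10.24 against 10.22 to 10.28) the ranges overlapped.

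**Figure D3:**
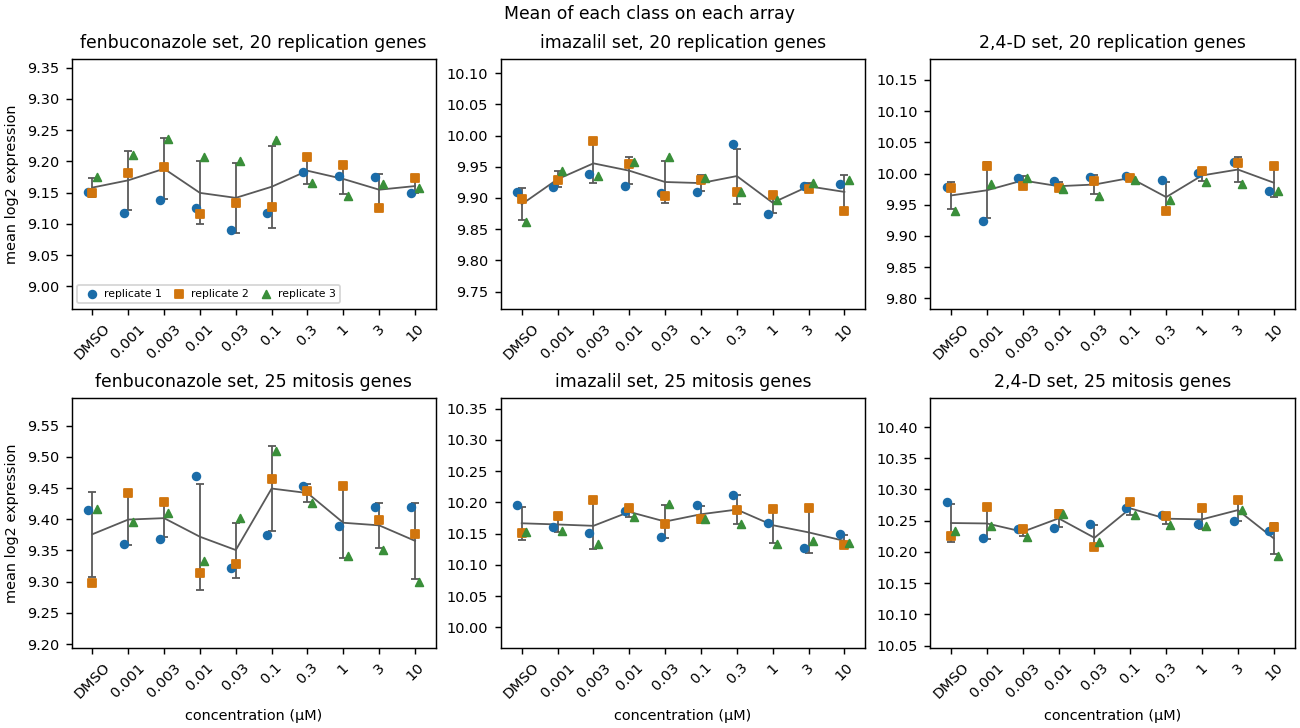
Mean log2 expression of the 20 replication genes (top) and the 25 mitosis genes (bottom) on each array (points, by replicate number) at DMSO and 9 concentrations (x axis, µM) of each set. Lines join the means of 3 arrays and bars are SD; each axis spans the same 0.4 log2, and the group means stay within 9.35 to 9.45 in the widest panel, the mitosis genes of the fenbuconazole set.

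CCNE2, cyclin E2, had the largest changes of the 45 genes, and it was looked at more closely after its values were seen. In the fenbuconazole set it read 6.16, 5.92 and 6.25 with DMSO, 6.56, 6.44 and 6.65 at 0.1 µM, 6.80, 6.77 and 6.53 at 0.3 µM and 6.25, 6.03 and 6.05 at 10 µM. All 3 arrays at 0.1, at 0.3 and at 1 µM (6.36, 6.42 and 6.35 at 1 µM) lay above the DMSO arrays, and those at 10 µM overlapped them. The change was 0.44 ± 0.15 at 0.1 µM and 0.59 ± 0.15 at 0.3 µM (SE, n = 3 per group, limma adjusted p = 0.497 and 0.491), and −0.0018 at 10 µM. In the imazalil set CCNE2 read 7.61, 7.64 and 7.64 with DMSO, and all 9 changes were above 0, from 0.06 at 1 µM to 0.27 ± 0.10 at 0.003 µM (limma adjusted p = 1). In the 2,4-D set, whose DMSO arrays are the same 3 and read 7.42, 7.67 and 7.72 after that set's normalization, the changes ran from 0.14 to 0.34 ± 0.12 at 1 µM (limma adjusted p = 0.998), and 5 of 9 had an unadjusted p below 0.05. Each set's 9 changes share 3 DMSO arrays, so they are not 9 separate observations. At 10 µM the probe set read changed by −0.0018, 0.08 and 0.21 with fenbuconazole, imazalil and 2,4-D. The other CCNE2 probe set (mean 6.15 against 7.31) changed by 0.12, 0.03 and −0.11, with the opposite sign for fenbuconazole and 2,4-D. It passed in none of the 27 comparisons with DMSO (smallest limma adjusted p = 0.604). CCNE1, the other cyclin E gene, had the lowest change of any member in the fenbuconazole set, −0.30 ± 0.13 at 1 µM (limma adjusted p = 0.874).

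**Figure D4:**
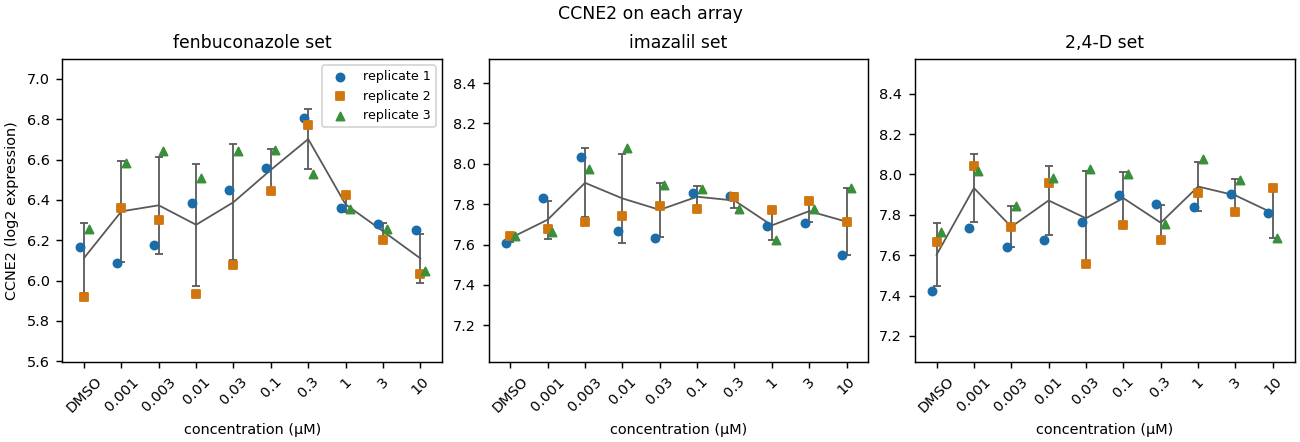
CCNE2 expression (y axis, log2, the same span in each panel) on each array at DMSO and 9 concentrations (x axis, µM) in the 3 sets, points by replicate number, lines joining means of 3 arrays, bars SD. In the fenbuconazole set the mean is 6.11 with DMSO, 6.70 at 0.3 µM and 6.11 at 10 µM, with no difference past the adjusted threshold.

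Apart from CCNE2, unadjusted p values below 0.05 in the fenbuconazole set came at 0.1 µM for KIF23 (0.56 ± 0.18, adjusted p = 0.452, and 0.28 without replicate 2, whose DMSO array was low), PCNA (0.26 ± 0.11, adjusted p = 0.58) and E2F1 (−0.25 ± 0.12, adjusted p = 0.622, and −0.14 without replicate 2), at 1 µM for CCNE1 and at 3 µM for SLBP, the histone mRNA binding protein (0.17 ± 0.08, adjusted p = 1; SE from limma, n = 3 per group). In the imazalil set PLK1 stood at −0.20 ± 0.08 at 0.003 µM and at −0.19 ± 0.08 at 0.1 µM (adjusted p = 0.937). In the 2,4-D set TPX2, a spindle assembly factor, stood at −0.17 ± 0.07 at 0.001 µM, TOP2A at 0.16 ± 0.08 and E2F1 at −0.16 ± 0.08 at 0.01 µM, and CDK1 at 0.17 ± 0.07 at 0.1 µM and 0.16 ± 0.07 at 1 µM. None of these passed, and none had an unadjusted p below 0.05 at more than 2 of the 9 concentrations.

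Against the other 8 concentrations of the same chemical, which frees the comparison from the DMSO arrays, 10 µM again called 0 of 45 members in each set. The share of all probe sets called was 0.00366% with fenbuconazole, 0.0128% with imazalil and 0.00549% with 2,4-D. At an unadjusted p below 0.05 there were 2, 0 and 1 members, against 6.13%, 5.78% and 6.46% of all probe sets. The 2 in the fenbuconazole set were CCNE2 (−0.30, limma adjusted p = 0.694) and KIF11, the kinesin that separates the spindle poles (−0.18 ± 0.08, adjusted p = 0.794). The 1 in the 2,4-D set was KIF11 as well (−0.15, adjusted p = 0.702), and KIF11 had the lowest difference of the 45 in the imazalil set (−0.14 ± 0.08, adjusted p = 0.876). At 10 µM it read 8.28, 8.22 and 8.05 with fenbuconazole, 9.40, 9.26 and 9.40 with imazalil and 9.29, 9.25 and 9.57 with 2,4-D, so the third array of 2,4-D lay near its DMSO arrays (9.43, 9.51 and 9.58). In this comparison 18, 21 and 19 of the 25 mitosis genes were lower at 10 µM, with medians of −0.04, −0.02 and −0.03, whereas 11, 14 and 10 of the 20 replication genes were lower. Over all probe sets, 49.7%, 48.5% and 47.5% were higher, with medians of −0.0008, −0.0033 and −0.0056. These small shifts of the mitosis genes were not tested as a list.

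The replicate numbers were compared within the 27 treated arrays of each set, with a mean for each concentration. The F-test called 0 of 45 members in every set, against 0.797% of all probe sets in the fenbuconazole set, 1.85% in the imazalil set and 2.88% in the 2,4-D set. At an unadjusted p below 0.05 there were 7, 5 and 5 members, against 12.1%, 16.4% and 18% of all probe sets. The members with the smallest p were MCM7 (limma adjusted p = 0.0913), E2F1 (0.105) and BIRC5 (0.107) in the fenbuconazole set, DLGAP5 (0.197) and MCM6 (0.251) in the imazalil set, and AURKB (0.0926), MCM4 (0.121) and KIF23 (0.127) in the 2,4-D set. MKI67 was among the 3 mitosis genes with the smallest p in both the fenbuconazole and the 2,4-D set, and AURKB in both the imazalil and the 2,4-D set. In the fenbuconazole set MCM7 and BIRC5 passed with dim probe sets left out, with a trended and robust variance, and with 1 probe set per gene (adjusted p = 0.00538 to 0.0423), and in the 2,4-D set AURKB passed under the same 3 settings and with all 30 columns (0.0201 to 0.0351).

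The class means differed little between replicate numbers. In the fenbuconazole set the replication mean over 9 arrays was 9.14 ± 0.03, 9.16 ± 0.04 and 9.19 ± 0.03 (SD) for numbers 1, 2 and 3, and the mitosis mean was 9.40 ± 0.05, 9.41 ± 0.06 and 9.39 ± 0.06. The range between numbers was thus 0.0496 for replication and 0.0205 for mitosis. In the imazalil set the ranges were 0.0106 and 0.0227, and in the 2,4-D set 0.0134 and 0.0179. The balance, replication minus mitosis, was −0.256 ± 0.038, −0.245 ± 0.045 and −0.194 ± 0.049 (SD, n = 9 each) for numbers 1, 2 and 3 of the fenbuconazole set, and ranged by 0.0313 and 0.0066 between numbers in the other two sets. The medians of the 3′ minus 5′ difference of the actin control probe sets, a measure of RNA quality, were 0.475, 0.354 and 0.304 in the same fenbuconazole arrays, and their part in the class means was not tested.

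All 81 treated arrays together, with a mean for each set and concentration and 1 term for the replicate number, called 8 of 45 members at an adjusted p of 0.05, a fit added after the set-wise results were seen. They were 4 replication genes, MCM3, MCM6, CDC6 and CCNE2, and 4 mitosis genes, CENPF, KIF20A, MKI67 and BIRC5. The same fit called 12.4% of all 54613 probe sets, and 29.7% of the 8929 genes whose level was above that of the lowest member. Members were not called more often than those genes, which were not matched to the members' levels. Of the pairwise differences, number 2 minus 1 called 4 members (7.52% of all probe sets), 3 minus 1 called 1 (1.74%) and 3 minus 2 called 7 (10.2%). The count rested on all sets and numbers: it was 4 without the fenbuconazole set, 3 without the imazalil set and 1 (MCM6) without the 2,4-D set, and 5, 0 and 3 without replicate 1, 2 and 3. With both RNA quality measures as covariates it was 9: KIF20A and MKI67 were no longer called, and MCM4, CDC45 and AURKB were.

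Among the replication genes, MCM6, a helicase subunit whose promoter is printed above with its E2F matches, was lowest in number 1. Its deviation from the mean of its 3 arrays ran from −0.21 through a median of −0.04 to 0.03 in the 27 arrays of number 1, from −0.05 through 0.03 to 0.14 in number 2, and from −0.06 through 0.01 to 0.13 in number 3. Numbers 2 and 3 exceeded number 1 by 0.09 ± 0.02 and 0.08 ± 0.02 (SE, limma adjusted p = 0.00172 and 0.0206), and the mean of number 1 was the lowest in each of the 3 sets. A dimmer MCM6 probe set (mean 5.04 against 10.56) put numbers 2 and 3 at −0.02 and −0.09 from number 1. It did not pass (limma joint adjusted p = 0.28). MCM3 was highest in number 2, where its deviation ran from −0.04 through 0.05 to 0.16 and was above 0 on 23 of 27 arrays. It exceeded number 1 by 0.08 ± 0.02 (adjusted p = 0.00581), and number 3 fell by 0.0781 from number 2 (adjusted p = 0.00743). CDC6, the helicase loader, was highest in number 3, 0.11 ± 0.03 above number 2 (adjusted p = 0.0214), with 20 of 27 arrays above their group's mean against 7 of 27 in number 2. The other CDC6 probe set had number 3 at 0.0015 from number 1 and 0.05 from number 2. It did not pass (limma joint adjusted p = 0.244). CCNE2 behaved alike, with number 3 above number 2 by 0.13 ± 0.04 (adjusted p = 0.0275). The other CCNE2 probe set had the same direction (0.20) and did not pass (joint adjusted p = 0.0586). On the probe sets read, MCM3 was thus highest in number 2 and CDC6 and CCNE2 in number 3, whereas numbers 2 and 3 were not told apart for MCM6 (−0.01 ± 0.02, adjusted p = 0.896).

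Among the mitosis genes, CENPF, a kinetochore protein, was highest in number 2, where its deviation was above 0 on 23 of 27 arrays, and lay 0.07 ± 0.02 above number 1 (adjusted p = 0.00505). A dimmer CENPF probe set (mean 7.03) had number 2 minus 1 at 0.06, and one with a mean of 2.50 had −0.03. Neither passed (limma joint adjusted p = 0.385 and 0.0625). KIF20A, a cytokinesis kinesin, was also highest in number 2, and number 3 lay below it (−0.07 ± 0.02, adjusted p = 0.0313). BIRC5, survivin, showed the same order, with number 3 at −0.09 ± 0.02 from number 2 (adjusted p = 0.00763), although its order of numbers 1 and 2 turned in the imazalil set (0.03 and 0.01 as mean deviations, against −0.07 and 0.10 with fenbuconazole). The 2 other BIRC5 probe sets had number 3 minus 2 differences of 0.02 and 0.04 and did not pass (joint adjusted p = 0.438 and 0.0726). MKI67, whose promoter carries 2 TTTGAA motifs, went the other way and was lowest in number 2 over 27 arrays, with number 3 higher by 0.08 ± 0.03 (adjusted p = 0.0288), although number 1 was lowest in the imazalil set, and 2 further MKI67 probe sets passed with the same direction (0.19 and 0.12). The remaining MKI67 probe set (mean 7.25) had the same direction (0.04) and did not pass (limma joint adjusted p = 0.509). In this fit of 81 arrays all pairwise differences of the 45 genes were at most 0.13 log2 in size, while within the fenbuconazole set alone they reached −0.26 for PLK1. CDC45 passed in 1 pair alone, number 2 minus 1 (−0.08 ± 0.02, adjusted p = 0.0309), and not in the F-test (0.0576). The difference had the same sign in all 3 sets for 20, 19 and 22 of 45 members in the pairs 2 minus 1, 3 minus 1 and 3 minus 2, against 35.4%, 32.3% and 39.4% of all probe sets.

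**Figure D5:**
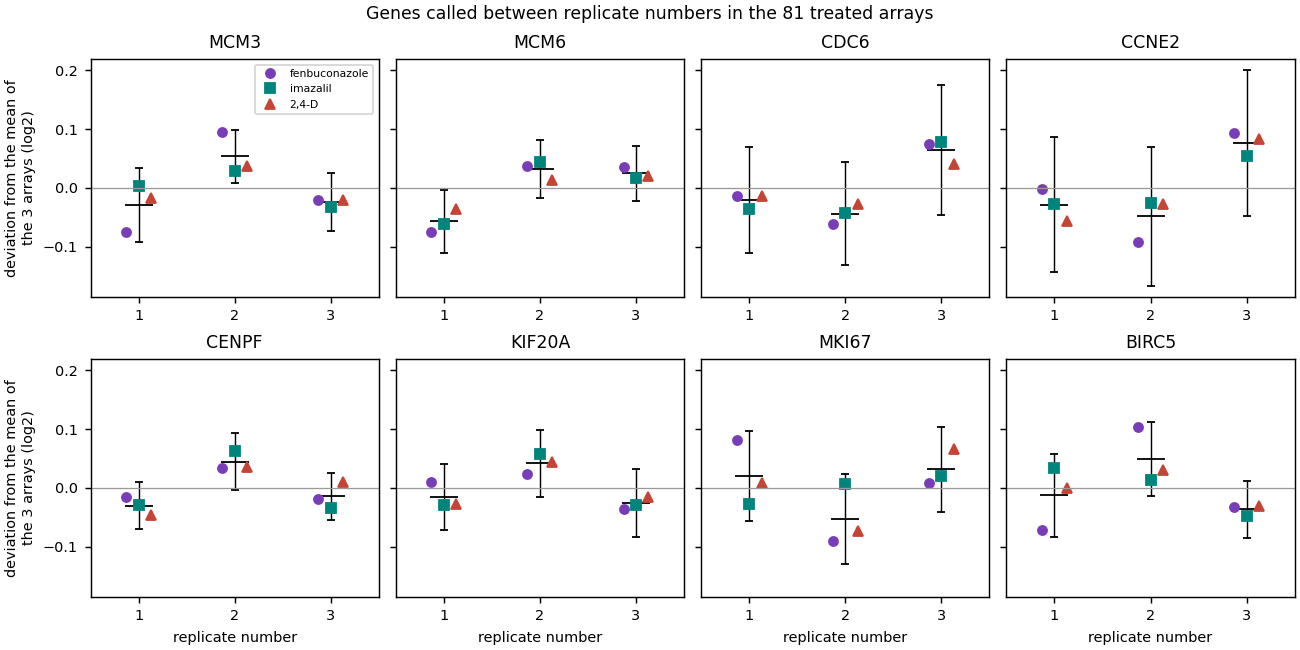
Deviation from the mean of the 3 arrays of a group (y axis, log2) by replicate number (x axis) for the 8 genes called in the 81 treated arrays. Coloured points are means over the 9 arrays of a set, black marks are means over 27 arrays with SD bars; MCM3, CENPF, KIF20A and BIRC5 peak at number 2, CDC6 and CCNE2 at number 3, and MKI67 is lowest at number 2.

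Other cell cycle genes were read the same way, from lists chosen with earlier results known. Of 39 further replication genes, 46 further mitosis genes, 39 regulators and 17 growth and arrest genes, 0 passed limma's test at 10 µM in any set. In the fit of 81 arrays 10, 9, 13 and 5 of them passed between replicate numbers, with differences of up to 0.47 log2, beside 12.4% of all probe sets and 29.7% of genes above the lowest member's level, so nothing particular to these lists is read from the counts. Adjusted p values in what follows are those of the F-test over the 3 numbers, and differences are number 2 minus 1 and then 3 minus 2. Of the 10 replication genes that passed, 8 were lowest in number 2 and 2 were highest there. The share of all called probe sets with each order is not given, so no direction is read as a trait of a list. Lowest in number 2 were TIPIN, a fork protection factor (−0.20 and 0.20, adjusted p = 1.61e-09), POLE, the leading strand polymerase (−0.11 and 0.15, adjusted p = 0.000276) and MCM10 (−0.05 and 0.10, adjusted p = 0.00544). Of the 9 mitosis genes that passed, 4 were highest in number 2, 1 was lowest there and the rest were neither. Highest in number 2 were CDC25C, the phosphatase that activates CDK1 (0.12 and −0.27, adjusted p = 4.81e-09), PRC1 (0.06 and −0.08, adjusted p = 0.00754) and KIF2C (0.03 and −0.11, adjusted p = 5.12e-05). Of the regulators, E2F3 was lowest in number 2 (−0.22 and 0.28, adjusted p = 1.9e-07), CDC25A was lowest there too (−0.12 and 0.09, adjusted p = 0.00254), and CDKN1B, the CDK inhibitor p27, was highest there (0.12 and −0.23, adjusted p = 3.24e-05). Of the growth and arrest genes, CCNG2, a cyclin of quiescent cells, was highest in number 2 (0.27 and −0.47, adjusted p = 3e-14), as was TXNIP (0.26 and −0.26, adjusted p = 4.84e-07), and GADD45B was lowest there (−0.21 and 0.15, adjusted p = 1.69e-07; all from limma). CCNG2 passed in each set on its own (adjusted p = 0.000775, 0.000311 and 0.00177).

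In the same fit 5 of 28 measured markers of other cell types passed, against the 12.4% and 29.7% above. Of 6 fibroblast markers, COL1A1, COL3A1 and PDGFRB passed in the 81 arrays, with number 2 above number 1 by 0.22, 0.48 and 0.21 log2, while THY1, DCN and LUM did not, and DCN and LUM stayed at set means of at most 3.43 log2. The log2 of the summed level of the 6 genes had medians of 9.51, 9.57 and 9.31 for numbers 1, 2 and 3 in the fenbuconazole set, 10.24, 10.37 and 10.25 in the imazalil set and 10.35, 10.52 and 10.25 in the 2,4-D set, with overlapping ranges between at least 2 numbers in each set. KRT18 was the only 1 of 6 epithelial markers to pass (number 2 minus 1 0.14, F-test adjusted p = 5.64e-06), while CDH1 and EPCAM had set means of 2.35 to 3.08. Of 5 endothelial markers PECAM1 passed at set means of 2.58 to 3.18 (adjusted p = 0.0162), none of the 6 hepatocyte and 5 blood markers passed, and NKX2-2 and PRKCB passed among the 8 Ewing sarcoma genes (adjusted p = 0.0208 and 0.00325). Their part in the differences of the cell cycle genes was not tested.

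The median SD among the 3 arrays of a group was 0.107, 0.0798 and 0.0655 log2 for the members in the fenbuconazole, imazalil and 2,4-D sets, against 0.129, 0.101 and 0.0955 for 8885 other genes above the level of the lowest member and 0.153, 0.135 and 0.133 for all genes. The steadiest members were TYMS, GINS2 and CCNA2 (SD 0.0536, 0.0467 and 0.0395), and the most variable were TOP2A with fenbuconazole (0.214) and CCNE1 in the other two sets (0.155 and 0.148). As a description over the 27 treated arrays, deviations of mitosis genes went together slightly in the fenbuconazole set, with a median r of 0.156 over 300 gene pairs, against 0.077 over 190 replication pairs, 0.062 over 500 pairs between the classes and 0.027 for those other genes. In the imazalil and 2,4-D sets the mitosis pairs had medians of 0.029 and 0.054. Arrays of a group share 1 normalization, and these weak correlations carry no test.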

How the data were processed

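Expression was measured in A673 cells on Affymetrix HT HG-U133+ PM arrays. The authors deposited log2 values made by RMA in Partek Genomics Suite from each chemical's arrays with DMSO, 30 columns per set; versions are not given in the sources used here. Array depth is not a count, so the number of arrays limits precision. The values were used as deposited, without 102 control probe sets, which left 54613 probe sets.

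Groups came from the labels. Each set was fitted in limma 3.58.1 (R 4.3.3) with a mean per concentration, moderated tests, two-sided p-values and Benjamini-Hochberg adjustment over all probe sets at 0.05. Contrasts were 10 µM against DMSO and against the other 8 concentrations, an F-test over 9 concentrations, the slope on log10 concentration and an F-test between replicate numbers. Class means are plain means of log2 values per array. Plots used Python 3.11.15 with pandas 2.3.3, numpy 2.4.6 and matplotlib 3.10.9. Scripts were tested on simulated data.

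Members, lists and tests were chosen with earlier results of these data known. The genes named were a fixed list of members with central roles, the 3 per class with the smallest p at 10 µM, for the slope and between replicate numbers, any that passed, and the 3 of each other list with the smallest replicate number p, the largest of the 3 sets deciding. Alternatives were dim probe sets left out, a trended and robust variance, a second quantile normalization, equal array medians, array weights, RNA quality covariates, 1 probe set per gene, other probe sets of a member, the replicate block and each replicate left out. The fit of 81 arrays, with its alternatives, was added after the data were seen. It takes a replicate number to mean the same in all 3 sets, which the labels do not state.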

Additional observations from a re-analysis of the deposited data

Results flagged for a closer look

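The mean of the 20 replication genes on the 2,4-D replicate 1 array at 0.001 µM stood apart from the other 8 concentrations of that replicate number. It was 9.92 log2 against 9.97 to 10.02, a gap of 0.508 of the whole range, and the 3′ minus 5′ difference of the actin control on that array was 0.69. MKI67 on the imazalil replicate 1 array at 0.01 µM was 10.10 log2 against 9.85 to 9.96 on the other 8 arrays, a gap of 0.542 of the range, with an actin difference of 0.56. These were 2 of 90 groups of 9 arrays looked at, and chance alone marks about 1 in 20 such groups.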

How the results depend on the processing

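No member passed against DMSO, over 9 concentrations, along concentration, at 10 µM against the other 8 or for slopes that differ between chemicals, under any alternative run. With the replicate block the counts were again 0 of 45, with a smallest adjusted p of 0.555 to 1 for the members. The numbers were not taken to pair the arrays, because the labels do not tie a number to a batch. Deviations of same-numbered arrays correlated at 0.042, 0.0689 and 0.0781 on average over 135 pairs in the fenbuconazole, imazalil and 2,4-D sets, with a lowest value of −0.138, −0.0947 and −0.145. Arrays of other numbers averaged −0.021, −0.0345 and −0.039. Between replicate numbers, the 0 members of the fenbuconazole set became 3 with dim probe sets left out, 3 with a trended and robust variance and 2 with 1 probe set per gene. In the imazalil set 1 passed with a trended and robust variance. In the 2,4-D set 2 passed with dim probe sets left out, 4 with a trended and robust variance, 1 with 1 probe set per gene and 1 with all 30 columns. Over 81 arrays the 8 members became 4 with equal array medians, 4, 3 and 1 without the fenbuconazole, imazalil and 2,4-D sets, 0 to 5 with 1 replicate number left out, and 9 without the fenbuconazole 0.01 µM array of replicate 1, whose actin difference was the largest. It was 6 to 11 under the other settings. The causes were not tested.

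The median change of the replication genes at 10 µM of imazalil was 0.0261 with all probe sets of a member. With 1 replicate left out, the replication median ran from −0.0068 to 0.0399 with fenbuconazole and from 9e-04 to 0.0444 with imazalil, and the mitosis median from −0.0688 to 0.0076 and from −0.0403 to −0.0118. KIF23 with fenbuconazole ran from −0.0344 (without replicate 2) to 0.4129, CDC6 with imazalil from −0.0017 (without replicate 3) to 0.1765 and PLK1 with imazalil from −0.2235 to 0.0037 (without replicate 3), none past the threshold. At 3 arrays per group the 95% interval of a single gene at 10 µM had a median half-width of 0.211, 0.16 and 0.146 log2 with fenbuconazole, imazalil and 2,4-D, up to 0.36, 0.265 and 0.254. Leaving out a replicate was also run, after the data were seen, for the members with an unadjusted p below 0.05 at lower concentrations, and none passed or changed sign. PCNA at 0.1 µM of fenbuconazole was 0.17 without replicate 3, PLK1 at 0.1 µM of imazalil −0.09 without replicate 1, and at 0.01 µM of 2,4-D TOP2A was 0.06 without replicate 2 and E2F1 −0.09 without replicate 3.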
